A study of Mus musculus with 10 samples.

Results

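The genes described here are 50 mouse genes of mitosis and chromosome segregation, chosen by symbol for what their products do. They fall into 9 groups by role: the CDK1 engine (6 genes), other mitotic kinases (4), the spindle checkpoint (4), the machinery of anaphase (4), the centromere and kinetochore (7), the chromosomal passenger complex (4), spindle motors and microtubule proteins (8), the central spindle and cytokinesis (6) and condensin with other chromosome structure proteins (7). Of the 50, 47 had at least 10 counts over the 10 libraries, as had 20269 of the 52550 genes in the table. The remaining 3, Bub3, Kif18b and Prc1, were listed at 0 in all 10 libraries.

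The cells were hematopoietic stem and progenitor cells from the bone marrow of wild-type C57BL/6 mice of 8 to 20 weeks, transformed with a retrovirus encoding MLL-AF9, the fusion protein of an aggressive myeloid leukemia. Every culture also carried a lentiviral construct that doxycycline (DOX) switches on. In MLL-AF9-i139 the construct makes the microRNA miR-139, and 3 clones grown from picked colonies were each sequenced without DOX and after DOX at 5 µg/mL, for 48 h in clones 1 and 2 and for 72 h in clone 3. In MLL-AF9-ieGFP it makes eGFP, and 1 clone was sequenced without and with DOX at 48 h and again at 72 h. The study's methods describe adding the repressor tetR-KRAB for MLL-AF9-i139, and for MLL-AF9-ieGFP only the making of the vector. Clones are numbered as in the sample titles, and the 72 h treatment was assigned by that number, although the columns of the table carry other clone numbers. The 72 h treatment and clone 3 cannot be told apart, the labels give no culture time for the untreated MLL-AF9-i139 libraries, and the control construct rests on a single clone whose pairs are 2 time points.

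Entry into mitosis is driven by the kinase CDK1 bound to B- and A-type cyclins and activated by the CDC25 phosphatases. The spindle then captures chromosomes at their kinetochores, the spindle checkpoint holds the cell until all are attached, and the anaphase-promoting complex releases separase, which cuts the cohesin that ties sister chromatids together. Most genes of this program are transcribed in G2 and M phase and kept silent in resting cells, through promoter elements called the CHR (cell cycle genes homology region) and CCAAT boxes, bound by the DREAM and MuvB complexes and by NF-Y. In a bulk culture, fewer cells in G2 and M and less RNA in each such cell cannot be told apart.

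The sequences of both mature arms of the microRNA that DOX induces are shown because their seeds (bases 2 to 8, in capitals) define the sites searched for among the members. Both come from RefSeq on GRCm38.p6 and lie on the plus strand of chromosome 7, miR-139-5p from 101475382 to 101475403 and miR-139-3p from 101475418 to 101475439.
miR-139-5p: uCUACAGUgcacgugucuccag
miR-139-3p: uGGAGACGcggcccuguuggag
The search covered the longest annotated 3′ UTR of each gene, for the complement of bases 2 to 8, with or without an A opposite base 1, or the complement of bases 2 to 7 with that A. A match to either seed was found in 9 of the 47 members (19.1%), against 31.8% of 13995 genes tested that have a 3′ UTR. The members' 3′ UTRs were shorter, with a median of 606 bases against 1092. The 9 were Plk1, Mad2l1, Ube2c, Cenpf, Kif11, Nusap1, Tpx2, Hmmr and Kif20a. Full 8-base matches were found in 2 members (4.3%, against 5.4% of the genes tested), both to miR-139-5p, and they are printed with the 8 bases in capitals. The Nusap1 site lies in exon 10 of 10, on chromosome 2 from 119650242 to 119650271 on the plus strand, and the Cenpf site in exon 18 of 18, on chromosome 1 from 189641804 to 189641833 on the minus strand (GENCODE M21, GRCm38).
Nusap1: tttaaaaacaaACTGTAGAactgggtggta
Cenpf: acgtgagacatACTGTAGAatgttggtcat

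The promoters carry what the members share outside the coding sequence. RefSeq promoters (250 bases before to 50 after the start of transcription, GRCm38.p6) were found for 41 of the 50 members. A CHR, searched as TTTGAA or TTCGAA on both strands, was present in 32 of these 41 (78.0%), against 21.7% of all 27025 genes in the promoter table and 17.5% of the 12232 genes tested that are in it. CCAAT on either strand was present in 31 (75.6%, against 41.1% of all genes), and 20 members held at least 2 such boxes (48.8%, against 13.3%). Both elements together were present in 29 (70.7%, against 8.6%). E2F-type sites (TTTCGCGC, TTTGGCGC or TTCCCGCC) were present in 2 members, Cdk1 and Ncapd2 (4.9%, against 3.4% of all genes and 5.7% of the genes tested). The 32 members held 42 CHR matches, a site that lies near several annotated starts being counted once, and 30 of them began within 50 bases of a start. A match in letters is no measure of binding.

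**Figure D1:**
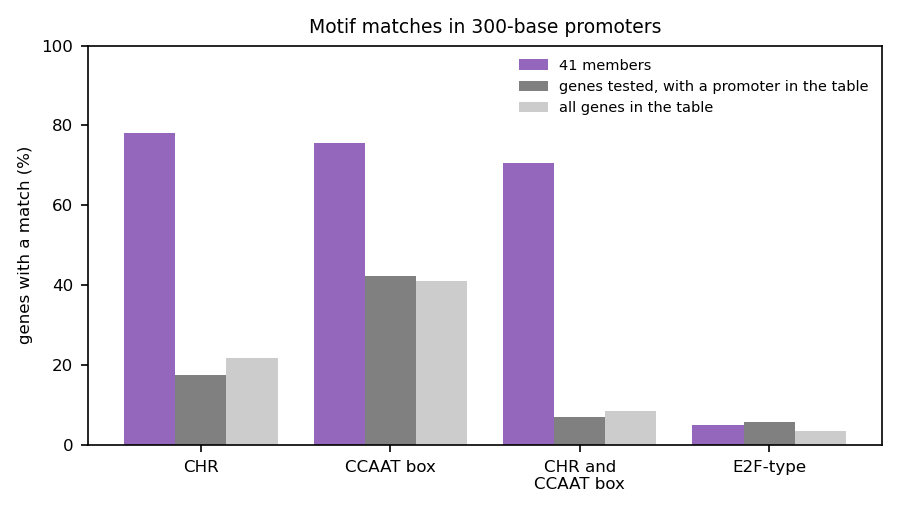
Percent of genes (vertical axis) whose 300-base promoter holds each motif, for the 41 members with a promoter (purple), the genes tested that have one (dark grey) and all genes in the promoter table (light grey). The members stand at 78.0% for the CHR against 21.7% of all genes, and at 4.9% for E2F-type sites against 3.4% of all genes and 5.7% of the genes tested.

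Stretches are printed for the 4 members with a CHR in the promoter whose log2 fold change with DOX was farthest from 0, Cdc25b, Espl1, Ttk and Cdca8, to show how the 2 elements are arranged. Capitals mark CCAAT (or its complement ATTGG) and the CHR (or its complement, TTCAAA in Ttk). The stretches lie on chromosome 2 from 131186910 to 131186970 (plus strand), on chromosome 15 from 102296239 to 102296281 (plus strand), on chromosome 9 from 83834614 to 83834711 (plus strand) and on chromosome 4 from 124936885 to 124937012 (minus strand). In Cdca8 the CHR and one ATTGG share a base.
Cdc25b: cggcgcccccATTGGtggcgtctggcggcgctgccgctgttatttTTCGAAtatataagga
Espl1: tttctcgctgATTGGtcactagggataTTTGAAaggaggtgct
Ttk: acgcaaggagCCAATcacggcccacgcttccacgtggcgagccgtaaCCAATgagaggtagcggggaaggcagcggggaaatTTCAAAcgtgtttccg
Cdca8: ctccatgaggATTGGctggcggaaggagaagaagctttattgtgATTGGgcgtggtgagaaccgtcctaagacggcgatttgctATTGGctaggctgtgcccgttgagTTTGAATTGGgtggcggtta
The first base of the CHR stands 27 bases before the start in Espl1 and at position 8 (Cdc25b and Ttk) or 14 (Cdca8) of the transcript, counted from 1. The 29 tested members with a CHR had a median log2 fold change with DOX of -0.19, and the 9 tested members whose promoter lacked one had a median of -0.24, with 8 of the 9 below 0.

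The libraries held 35133308 to 47089725 counts over genes. Levels are given as CPM (counts in every 1000000 counts of a library, adjusted with TMM factors over the 10 libraries) and differences on the log2 scale. Levels of different genes are compared only as CPM per kilobase of exon. On that scale the members spanned a wide range in untreated MLL-AF9-i139 cells, from 0.113 for Cdc25b and 5.00 for Cdc25c to 82.3 for Cdc20 and 85.8 for Smc4, with a median of 19.4. Of the markers of the labelled cell type, Kit, Fcgr3, Ptprc, Spi1 and Mpo were present, whereas Itgam had 6 counts in all and 99.92% of its body lies inside other genes.

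With DOX, most mitotic genes stood at lower levels in the miR-139 clones and on both sides of their untreated level in the eGFP clone. The median log2 fold change of the 47 members in MLL-AF9-i139 was -0.19, a level 0.875 of that without DOX, beside 0.01 for all 19223 genes tested, and 41 of the 47 were below 0, beside 48.8% of all genes. In the fit without clone as a term, the quasi-likelihood test of edgeR, adjusted by Benjamini and Hochberg, called 0 members, where 0.0624% of all genes were called. At an unadjusted p under 0.05 it gave 16 members, all lower (9.22% of all genes were lower at that level). The lowest adjusted p of a member was 0.125, for Melk.

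The 3 clones differed from each other also without DOX, and their libraries pair by clone. With clone as a block, 9 members fell and 0 rose, beside 5.33% of all genes that fell and 7.05% that rose. The 9 were Ccna2, Ttk, Melk, Espl1, Birc5, Cdca8, Hmmr, Kif20a and Smc2, and the median over the 47 was -0.20. DESeq2 without the block called 3 of these, Ccna2, Melk and Espl1, all lower, beside 3.07% of all genes called lower. An edgeR fit of all 10 libraries without the block called 6 members, all lower, beside 2.55% of all genes called lower. The 9 had from 15716 counts (Melk) to 80382 counts (Smc2) over the 10 libraries.

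The number called depended on clone 3. Without it, the unblocked edgeR test called 17 of 47 members, all lower, beside 10.1% of all genes called lower, and with the block it called 31 lower and 3 higher, beside 20.9% and 22.5% of all genes. Leaving out clone 1 or clone 2 instead gave 0 members called, with and without the block, in fits that called few genes of any kind. Of all genes, in either direction, 0.00555% were called without clone 1 and 0% without clone 2, and with the block 1.8% and 3.17%. The 17 called without the block were Cdk1, Ccnb1, Ccna2, Ttk, Melk, Bub1, Bub1b, Mad2l1, Espl1, Spc24, Aurkb, Birc5, Cdca8, Hmmr, Anln, Racgap1 and Smc2, which takes in all 3 checkpoint genes tested and 3 of 4 genes of the passenger complex. The 3 higher in clones 1 and 2 with the block were Cdc25b, Nusap1 and Kif23. Among the members tested, 34 share no exon base with another gene. Of these, 31 were below 0 over the 3 clones and 6 fell with the block, beside 48.8% and 5.33% of all genes. This looks at exons only and does not cover overlap of whole gene bodies. Bub3 and Kif18b share no exon base either, yet were listed at 0.

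Taken clone by clone, as the difference of log2 CPM between its 2 libraries, the median over the 47 members was -0.29 in clone 1, -0.30 in clone 2 and -0.13 in clone 3. These medians correspond to 0.820, 0.810 and 0.917 of the untreated level. Below 0 were 40, 41 and 43 members, beside 50.6%, 48.8% and 46.9% of all genes. The medians over all 20269 genes were -0.01, 0.01 and 0.00. Of the 40 members below 0 in both clone 1 and clone 2, 35 stood closer to 0, or above it, in clone 3. The exceptions were Pttg1, Cenpe, Ndc80, Ncaph and Smc4. Picking members by their values in clones 1 and 2 by itself tends to leave another clone nearer to 0. The share among all genes picked in this way was not counted. Over all genes the differences were also narrower in clone 3. Their quartiles were -0.20 and 0.24 there, against -0.40 and 0.36 in clone 1 and -0.38 and 0.41 in clone 2.

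**Figure D2:**
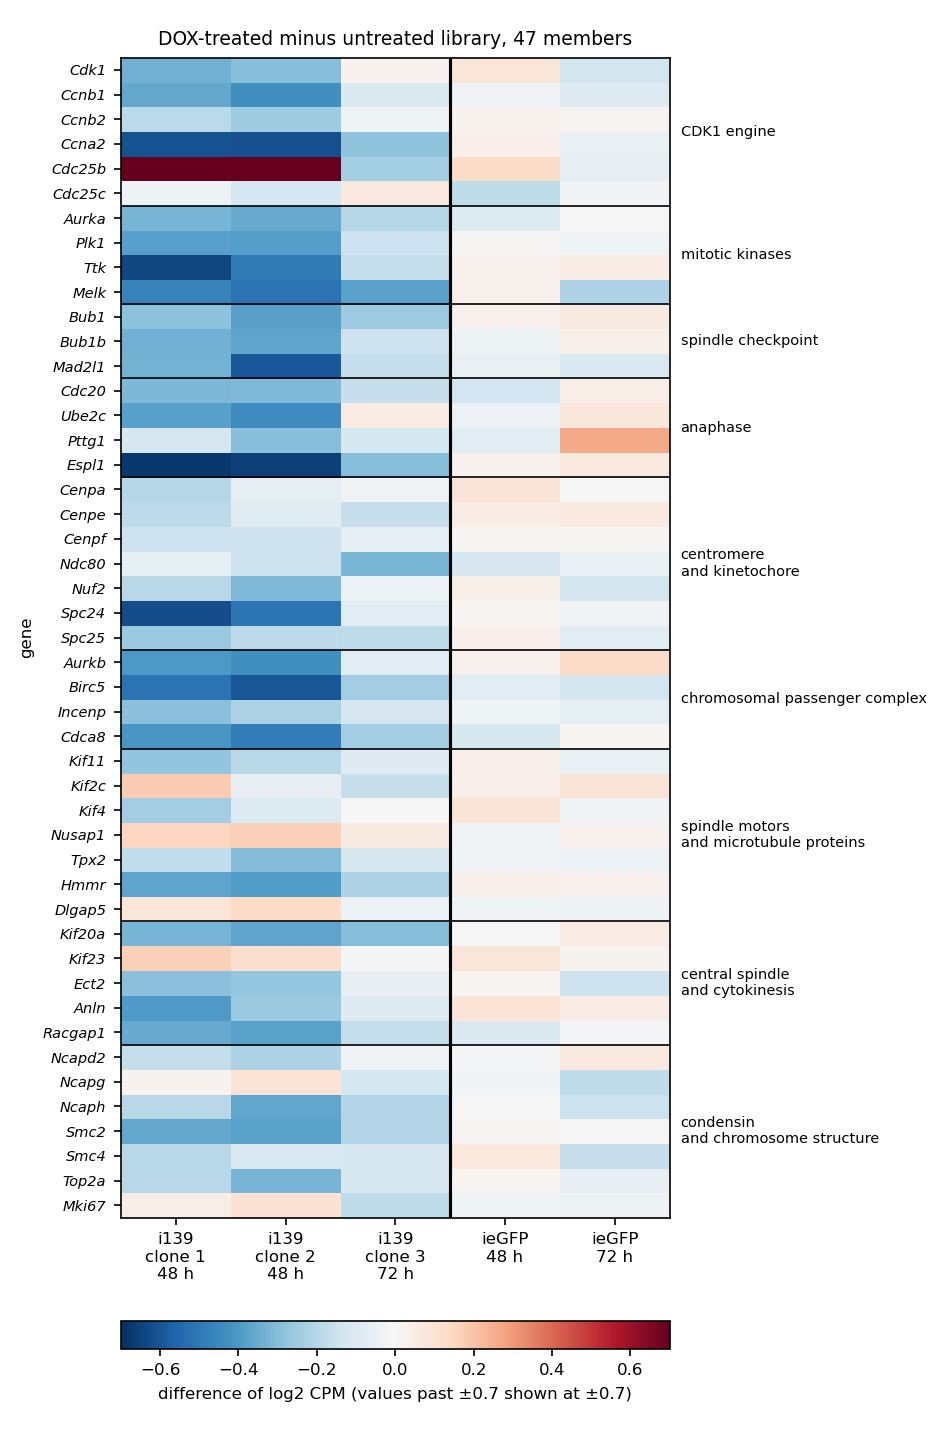
Difference of log2 CPM between the DOX-treated and the untreated library (colour, blue lower and red higher, limited to ±0.7) for each of the 47 members (rows, by role) in the 3 MLL-AF9-i139 clones and the 2 MLL-AF9-ieGFP time points (columns). Blue fills clones 1 and 2 (medians -0.29 and -0.30), is paler in clone 3 (-0.13) and gives way to mixed pale colours in the eGFP clone (0.01 and -0.02).

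Clones 1 and 2 resembled each other gene by gene. Across the 47 members their differences had a Pearson correlation of 0.951, or 0.888 without Cdc25b, which stands far from the rest (all 20269 genes: 0.555). Clone 1 and clone 3 had 0.156, and 0.406 without Cdc25b (all genes: 0.255). Clone 2 and clone 3 had 0.194, and 0.487 without Cdc25b (all genes: 0.271). These are correlations across genes, which are not independent replicates, and the libraries of different clones are distinct. Between clones 1 and 2, the only member of opposite sign was Kif2c.

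**Figure D3:**
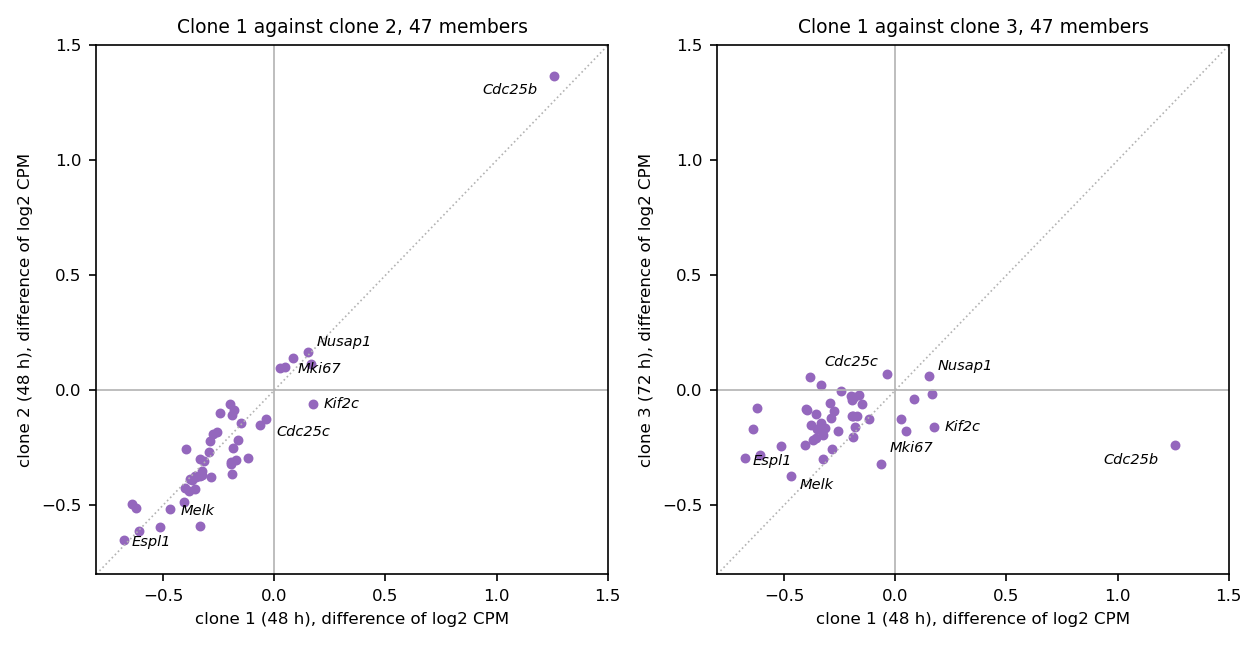
Difference of log2 CPM with DOX in clone 1 (horizontal axis) against clone 2 (left) and clone 3 (right), 1 point per member; the dotted line marks equal values. Points follow the line for clone 2 (r = 0.951, or 0.888 without Cdc25b). For clone 3 they lie mostly between the line and 0 (r = 0.156, or 0.406 without Cdc25b). Cdc25b lies far to the right in both panels.

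In the CDK1 engine, 5 of 6 genes were below 0 and Ccna2 was called with the block. Cdk1, the kinase that drives entry into mitosis (chromosome 10 from 69335146 to 69352938 of GRCm38), had 146, 140.1 and 164 CPM without DOX in clones 1, 2 and 3, and 116, 114 and 166 CPM with DOX. Clones 1 and 2 were lower with DOX and clone 3 was not, and the groups overlapped (log2 fold change -0.17, SE 0.16, n = 3 a group, adjusted p = 0.567 with edgeR). Its level in the eGFP clone was 139 and 189.9 CPM without DOX at 48 and 72 h and 148 and 174 CPM with DOX. The 72 h cultures were above the 48 h ones in both conditions, by more than DOX moved either.

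Ccnb1, the B-type cyclin partner of CDK1, had 134, 139 and 158 CPM without and 105, 103 and 147 CPM with DOX. It was lower with DOX in all 3 clones, least in clone 3, and the groups overlapped (log2 fold change -0.27, SE 0.15, adjusted p = 0.347 with edgeR, 0.0787 with the block). Ccna2, the A-type cyclin of S and G2 phase, is named after its values were seen. It had 134, 146 and 151 CPM without DOX and 87.8, 95.2 and 124 CPM with DOX, so that the groups did not overlap. With the block it fell by 0.49 on the log2 scale (SE 0.09, edgeR adjusted p = 0.0282), and it stood at 143 and 154 CPM without and 147 and 149 CPM with DOX in the eGFP clone. Exons of Exosc9 on the opposite strand cover 12.49% of the exon length of Ccna2.

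The 2 CDC25 phosphatases among the members, which remove the inhibitory phosphates from CDK1, were not lower in the way of the cyclins. This does not hold for the whole family, as Cdc25a, one of the other mitosis genes below, had a log2 fold change of -0.55 and fell with the block. Cdc25b was the lowest member, with 11, 19 and 24 counts without DOX and 29, 47 and 20 counts with DOX in clones 1 to 3, and 3 counts in each of the 4 eGFP libraries. Its log2 fold change was 0.89 (SE 0.47, adjusted p = 0.32 with edgeR), with more counts after DOX in clones 1 and 2 and fewer in clone 3. Cdc25c had 23.1, 24.7 and 26.0 CPM without and 22.5, 22.6 and 27.3 CPM with DOX, a log2 fold change of -0.01 (SE 0.12), and the groups overlapped throughout. Ccnb2, another B-type cyclin, had a log2 fold change of -0.14.

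**Figure D4:**
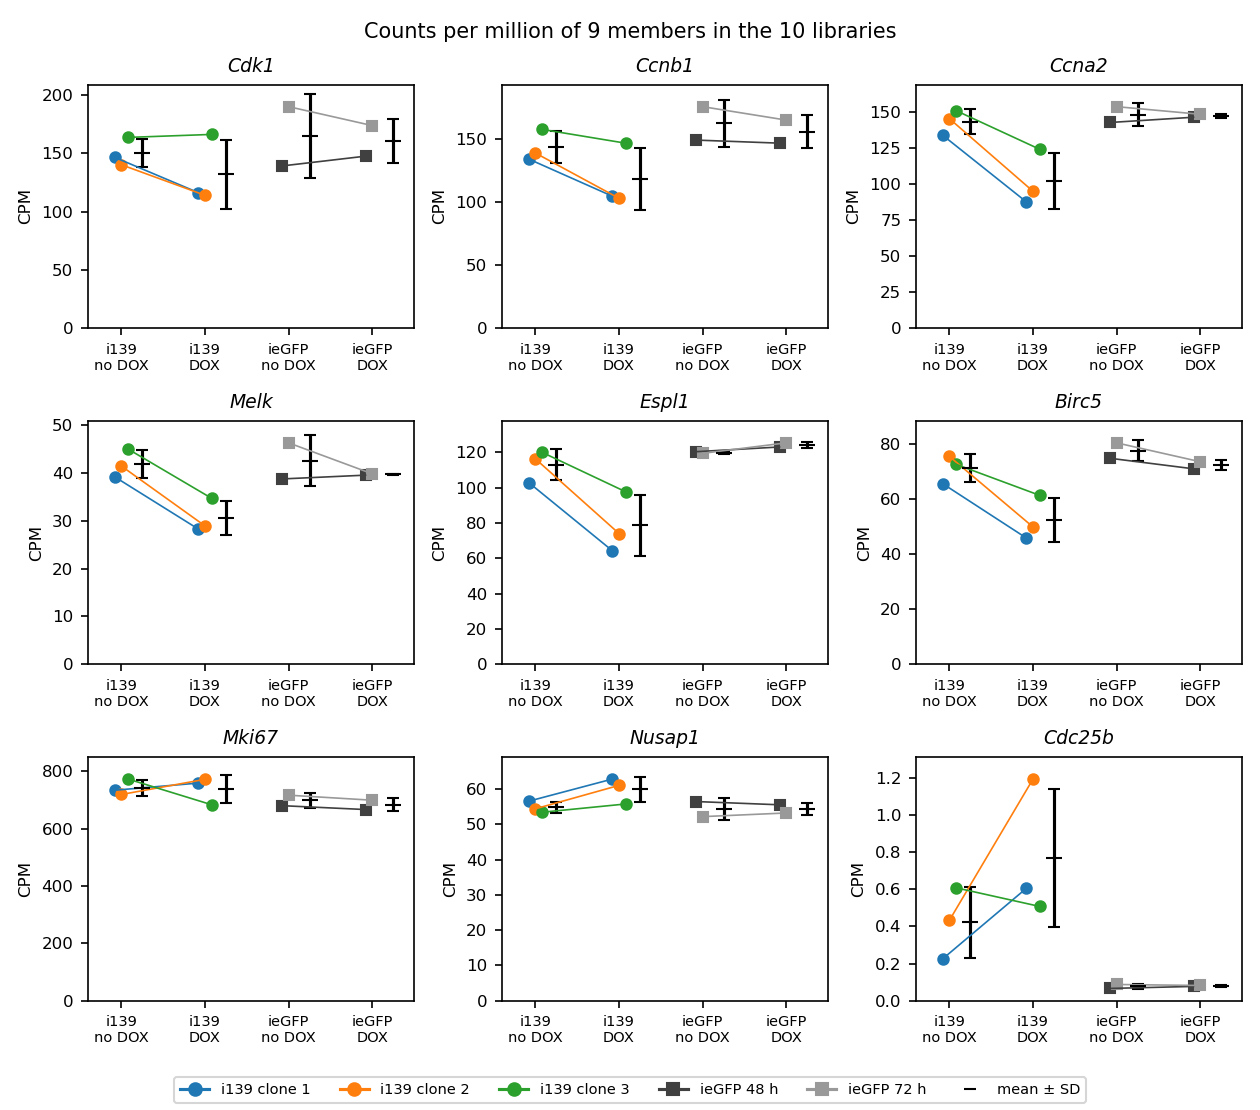
CPM (vertical axis, from 0) of 9 members in each library, with lines joining the 2 libraries of an MLL-AF9-i139 clone (circles) or of an MLL-AF9-ieGFP time point (squares), and the mean ± SD of each group (n = 3 for i139, 2 for ieGFP) at its right. Ccna2, Melk, Espl1 and Birc5 are lower with DOX in all 3 i139 clones, whereas Mki67 and Nusap1 are not, and Cdc25b lies at or below 1.20 CPM throughout.

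All 4 of the other mitotic kinases were below 0, and in each the DOX-treated and untreated MLL-AF9-i139 libraries did not overlap. Melk, a kinase of the cell cycle and of stem cells (chromosome 4 from 44300876 to 44364675), had 39.1, 41.4 and 44.9 CPM without DOX and 28.2, 28.9 and 34.6 CPM with DOX. All 3 clones were lower by similar amounts (log2 differences of -0.47, -0.52 and -0.37), and the log2 fold change was -0.44 (SE 0.12, edgeR adjusted p = 0.125, or 0.0283 with the block). In the eGFP clone it had 38.7 and 46.2 CPM without and 39.5 and 39.8 CPM with DOX. The 72 h pair of the eGFP clone was lower too, by 0.22, the lowest value of any member there.

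Aurka, which builds the spindle poles, had the smallest difference of the 4, with 100.0, 112 and 109 CPM without and 79.7, 87.9 and 95.3 CPM with DOX (log2 fold change -0.28, SE 0.10, adjusted p = 0.187 with edgeR and 0.0606 with the block). Plk1, a kinase needed at almost every step of mitosis, had a log2 fold change of -0.29. Ttk (also called Mps1), the kinase that starts the spindle checkpoint, fell by 0.42 (SE 0.11, edgeR adjusted p = 0.0469) with the block.

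The spindle checkpoint genes had low values in all 3 clones, but none passed the test with all 3 clones in, with or without the block. Mad2l1, which holds CDC20 inactive until chromosomes are attached, had 56.3, 64.9 and 64.2 CPM without and 44.7, 43.1 and 57.2 CPM with DOX (log2 fold change -0.34, SE 0.13, adjusted p = 0.205 with edgeR). Bub1b, its partner in the checkpoint complex, had 135, 149.5 and 149 CPM without and 107, 116 and 135 CPM with DOX (log2 fold change -0.27, SE 0.11, adjusted p = 0.229). Bub1 had a log2 fold change of -0.29, with adjusted p = 0.053 in the blocked edgeR fit. Bub3 (chromosome 7 from 131560222 to 131571895) was listed at 0 in each library, and 100% of its body lies inside other annotated genes, as do those of Kif18b and Prc1, so these zeros are no measure of their expression.

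Espl1 had the largest difference among the anaphase genes and, Cdc25b aside, among all members. It encodes separase, the protease that cuts cohesin (chromosome 15 from 102296266 to 102324357), and its promoter is one of those printed above. Espl1 had 103, 116 and 119.9 CPM without DOX (113 ± 8.99, SD, n = 3) and 64.3, 74.0 and 97.6 CPM with DOX (78.6 ± 17.1, SD, n = 3). Every treated library lay below every untreated one, clone 3 least so. In the eGFP clone it had 120.3 and 119 CPM without and 123 and 125 CPM with DOX. The log2 fold change was -0.51 (SE 0.16, edgeR adjusted p = 0.137, a level 0.702 of the untreated one), and with the block it fell by 0.53 (SE 0.10, adjusted p = 0.0278), the lowest adjusted p of a member.

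Pttg1, the securin that restrains separase until anaphase, had 9.16, 10.3 and 10.7 CPM without and 8.44, 8.42 and 9.80 CPM with DOX. Its groups overlapped (log2 fold change -0.17, SE 0.16, adjusted p = 0.58 with edgeR). Cdc20, the activator of the anaphase-promoting complex, had a log2 fold change of -0.25, and Ube2c, the ubiquitin-conjugating enzyme of that complex, had a log2 fold change of -0.23 and was above 0 in clone 3 (0.06).

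All 7 centromere and kinetochore genes were below 0, with a median of -0.16, and none passed the test with or without the block. Spc24, a subunit of the NDC80 complex that grips microtubules, had 28.8, 32.9 and 29.3 CPM without and 18.7, 23.0 and 27.8 CPM with DOX. Clones 1 and 2 were well below their untreated libraries and clone 3 only a little (log2 differences of -0.62, -0.51 and -0.08, log2 fold change -0.38, SE 0.16, adjusted p = 0.228 with edgeR). The other subunits of that complex had log2 fold changes of -0.19 (Spc25), -0.16 (Nuf2) and -0.17 (Ndc80). Ndc80 was the 1 member of this group lowest in clone 3 (-0.32, against -0.06 and -0.15).

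Cenpa, the histone H3 variant that marks centromeres, was nearest to 0 in the group, with 84.1, 80.0 and 97.6 CPM without and 73.1, 76.7 and 96.0 CPM with DOX (log2 fold change -0.08, SE 0.13, adjusted p = 0.781 with edgeR). Cenpe, a kinetochore motor, had a log2 fold change of -0.13 and Cenpf, a large kinetochore protein with a full miR-139-5p match, had a log2 fold change of -0.10.

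The chromosomal passenger complex places the kinase Aurora B on chromosomes and later on the central spindle, and all 4 of its genes were below 0. Birc5, which encodes its subunit survivin, had 65.6, 75.5 and 72.6 CPM without and 45.9, 49.9 and 61.4 CPM with DOX, with no overlap. With the block it fell by 0.44 (SE 0.09, edgeR adjusted p = 0.0345), whereas without it the log2 fold change was -0.43 (SE 0.13, adjusted p = 0.135). The eGFP clone had 74.9 and 80.5 CPM without and 71.0 and 73.6 CPM with DOX, also without overlap, in log2 differences of -0.08 and -0.13.

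Cdca8, which encodes borealin, fell by 0.36 with the block (SE 0.08, edgeR adjusted p = 0.0394). Exons of a gene on the opposite strand cover 4.48% of its exon length. Incenp, the scaffold of the complex, differed least, with 216, 236 and 249 CPM without and 177, 202 and 229.6 CPM with DOX (log2 fold change -0.19, SE 0.12, adjusted p = 0.388). Aurkb, the kinase itself, had a log2 fold change of -0.28, and -0.08 in clone 3 alone.

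The spindle motors and microtubule proteins were mixed. Hmmr, which helps to organise spindle poles, had 120.1, 121 and 124 CPM without and 92.9, 92.3 and 107 CPM with DOX, with no overlap, and fell by 0.31 with the block (SE 0.08, edgeR adjusted p = 0.0471). Kif2c, a motor that takes microtubules apart at the centromere, had 47.5, 56.6 and 54.1 CPM without and 53.6, 54.3 and 48.4 CPM with DOX (log2 fold change 0.00, SE 0.11, adjusted p = 0.988). Its 3 clones went different ways, with log2 differences of 0.18, -0.06 and -0.16.

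Nusap1, which bundles microtubules around chromosomes and carries a full miR-139-5p match in its 3′ UTR, had 56.5, 54.4 and 53.4 CPM without and 62.8, 61.0 and 55.8 CPM with DOX. It was above 0 in all 3 clones, the 1 member for which this held, at a log2 fold change of 0.14 (SE 0.10, adjusted p = 0.444 with edgeR). Dlgap5, another spindle protein, had a log2 fold change of 0.08. The spindle motors Kif11 and Kif4 had log2 fold changes of -0.17 and -0.10, and Tpx2, the activator of Aurora A, had a log2 fold change of -0.18.

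At the central spindle, Kif20a, a motor that carries the passenger complex there, had 90.1, 101 and 92.5 CPM without and 72.0, 77.9 and 75.2 CPM with DOX. All 3 clones were lower to a like degree (log2 differences of -0.32, -0.37 and -0.30), and it fell by 0.32 with the block (SE 0.08, edgeR adjusted p = 0.0428). Exons of Cdc23 on the opposite strand cover 29.3% of its exon length, and whether counting used strand is not given in the sources used here.

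Kif23, the motor of the centralspindlin complex, had 74.8, 77.3 and 71.2 CPM without and 83.9, 83.7 and 70.5 CPM with DOX (log2 fold change 0.11, SE 0.11, adjusted p = 0.611 with edgeR). Racgap1, its partner in the same complex, had a log2 fold change of -0.28 and was lower in each of the 3 clones. Ect2, which activates RhoA at the division plane, had a log2 fold change of -0.19, and Anln, the scaffold of the contractile ring, had a log2 fold change of -0.23.

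Condensin folds chromosomes for segregation. Smc2, an ATPase subunit of condensin, had 209.6, 199 and 224 CPM without and 164, 153 and 194 CPM with DOX, with no overlap, and fell by 0.30 with the block (SE 0.08, edgeR adjusted p = 0.0486). The other condensin subunits had log2 fold changes from -0.24 (Ncaph) through -0.12 (Smc4) and -0.12 (Ncapd2) to 0.01 (Ncapg). Top2a, which untangles DNA, had a log2 fold change of -0.19.

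Mki67, which encodes the proliferation marker Ki-67 and coats mitotic chromosomes, stood near its untreated level. It had 734, 719 and 773 CPM without DOX (742 ± 27.8, SD, n = 3) and 759, 772 and 684 CPM with DOX (738 ± 47.9, SD, n = 3). Clones 1 and 2 were slightly above their untreated libraries and clone 3 was below, and the log2 fold change was 0.01 (SE 0.10, adjusted p = 0.981 with edgeR and 0.983 with the block). Together with Cdc25b, Nusap1, Dlgap5, Kif23 and Ncapg it made up the 6 members above 0 in both clone 1 and clone 2.

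Counting libraries rather than fits, the 3 DOX-treated MLL-AF9-i139 libraries all lay below the 3 untreated ones for 20 of 47 members, where this held for 12.8% of the 19223 genes. For 0 members did they all lie above, against 12% of all genes. By role, the 20 were all 4 of the other mitotic kinases, 5 of 7 centromere and kinetochore genes, 2 of 6 in the CDK1 engine, 2 of 4 in anaphase, 2 of 5 in cytokinesis, 2 of 7 in chromosome structure, and 1 each in the checkpoint, the passenger complex and the spindle proteins.

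In the eGFP clone no member's difference with DOX passed the test. The median log2 fold change was -0.01, beside 0.01 for all genes, the fitted values of the 47 ran from -0.10 to 0.10, and edgeR called 0 members, with 0 at an unadjusted p under 0.05 and 0 by DESeq2. Of the 20269 genes, 0% were called by edgeR and 1.28% were at an unadjusted p under 0.05. Pair by pair, 19 members were below 0 at 48 h and 25 at 72 h, beside 50.3% and 47.5% of all genes, and 22 members had pairs of opposite sign. The largest difference in either pair was 0.26, for Pttg1 at 72 h.

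The 72 h and 48 h libraries of the eGFP clone differed from each other over a wider range than those with and without DOX. Without DOX, the 72 h eGFP library differed from the 48 h one by -0.24 (Bub1) to 0.45 (Cdk1) on the log2 scale, with a median of 0.04, and with DOX by -0.34 (Ncapg) to 0.29 (Pttg1), with a median of 0.02. Each is a difference between single libraries, with no replicate.

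Whether DOX acted differently with the 2 constructs was tested as an interaction over all 10 libraries. The median interaction of the members was -0.19 on the log2 scale, beside -0.01 for all 20269 genes. Below 0 were 40 of the 47 members, beside 10402 of the 20269 genes. EdgeR called 0 members (0.00493% of all genes), and DESeq2 called 0. At an unadjusted p under 0.05, edgeR had 7 members lower, where 4.21% of all genes were. With the pairs as a block it again called 0 (0.0247% of all genes were called lower), with 15 lower at an unadjusted p under 0.05, where 9.65% of all genes were lower at that level. Espl1 had the largest negative value among the members named here, -0.57 (SE 0.21, adjusted p = 0.527 in the edgeR fit and 0.0947 with the block). Without clone 3, Ccna2, Ttk, Espl1 and Hmmr passed this test, all lower, beside 4.44% of all genes called lower.

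In values alone, 32 of the 47 members were lower in each MLL-AF9-i139 clone by more than in either eGFP pair, where this held for 20.1% of all 20269 genes. Of the 47, 12 were below 0 in all 3 clones and above 0 in both eGFP pairs, where this held for 5.1% of all genes. These 12 were Ccnb2, Ttk, Bub1, Espl1, Cenpa, Cenpe, Cenpf, Aurkb, Hmmr, Kif20a, Anln and Smc2.

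Among 100 other genes of the same machinery, 98 could be tested, and their median log2 fold change was -0.16. The unblocked edgeR test called 0, with 23 lower and 2 higher at an unadjusted p under 0.05, where 9.22% and 11.4% of all genes were. DESeq2 called 4 lower and 1 higher (3.07% and 5.03% of all genes), and the blocked edgeR test called 11 lower and 2 higher (5.33% and 7.05% of all genes). By median, inner and outer kinetochore genes (-0.24, 23 of 27 below 0) and further spindle and cytokinesis genes (-0.23, 24 of 26) lay lowest. The subunits of the anaphase-promoting complex (-0.10, 11 of 16) and cohesin (-0.09, 7 of 11) lay nearest to 0.

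The 4 with the lowest p were Ncapg2 of condensin II, with a log2 fold change of -0.51 (SE 0.12), the phosphatase Cdc25a with -0.55 (SE 0.14), the kinetochore gene Zwilch with -0.61 (SE 0.16) and the cohesin subunit Smc3 with 0.34 (SE 0.09). With the block, edgeR gave them adjusted p = 0.0248, 0.0305, 0.0293 and 0.0435, so that 3 fell and Smc3 rose. Of the transcription factors that switch on G2 and M genes, Foxm1 had 48.9, 53.8 and 51.5 CPM without and 39.8, 47.1 and 51.4 CPM with DOX (log2 fold change -0.15, SE 0.12, adjusted p = 0.527). Mybl2, which acts earlier in the cycle, had 181, 204 and 191 CPM without and 111, 139.6 and 180.4 CPM with DOX (log2 fold change -0.41, SE 0.16, edgeR adjusted p = 0.218, or 0.0605 with the block). For both, the difference was widest in clone 1 and smallest in clone 3. Wee1, the kinase that restrains CDK1, was listed at 0 throughout, with its body inside other genes.

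Genes of S phase were set beside the members, to see whether the lower levels ended at mitosis. All 18 of 18 tested were below 0, with a median of -0.35, lower than that of the mitotic genes, a difference that was not tested. The unblocked edgeR test called 0, with 15 lower at an unadjusted p under 0.05 (9.22% of all genes). DESeq2 called 5 lower (3.07% of all genes), and with the block edgeR called 12 lower (5.33%). Orc1, which marks origins of replication, is given as the gene with the lowest log2 fold change of the 18, and had 4712 counts over the 10 libraries. It had 12.4, 11.7 and 13.2 CPM without and 6.08, 5.49 and 11.4 CPM with DOX, again with clone 3 nearest to its untreated library. The log2 fold change of Orc1 was -0.69 (SE 0.27, edgeR adjusted p = 0.212, or 0.0452 with the block).

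Other measures moved along with these. Cdkn1a, the CDK inhibitor p21, had 52.2, 43.4 and 43.0 CPM without and 191, 179 and 63.1 CPM with DOX in clones 1 to 3, so that it too differed least in clone 3. With the block it rose by 1.52 (SE 0.27, edgeR adjusted p = 0.0271), against an adjusted p of 0.1 without it, and its eGFP levels were 42.8 and 45.6 CPM without and 43.5 and 45.8 CPM with DOX.

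The summed level of 6 myeloid progenitor markers (5 with counts) was 936 to 1135 CPM in untreated and 2126 to 2232 CPM in treated MLL-AF9-i139 libraries, mostly Mpo, and 1037 to 1158 against 1216 to 1442 CPM in the eGFP clone. These markers moved unevenly in MLL-AF9-i139. Means without and with DOX were 536 and 1406.5 CPM for Mpo, 88.4 and 227 for Fcgr3, 198 and 278 for Ptprc and 85.8 and 135 for Spi1. Kit stayed near its untreated level, at 143 and 144 CPM. The 8 markers of mature neutrophils, all with counts, summed to 130.2 to 223 CPM without and 193 to 361 CPM with DOX. These ranges overlap, but by clone the sum was higher with DOX each time (223 to 361, 164 to 337 and 130.2 to 193 CPM). In the eGFP clone it was 296 to 378 against 283 to 399 CPM. Single markers differed, with means without and with DOX of 1.05 and 22.3 CPM for Cxcr2 and 59.2 and 149 CPM for Ngp. S100a9 had 51.2 CPM in both, and Mmp8 had 0.129 and 0.0717 CPM. Macrophage markers (3 of 5 with counts) summed to 7.20 to 9.51 against 8.05 to 22.2 CPM, and mast cell and basophil markers (3 of 3) to 9.94 to 12.1 against 14.9 to 16.6 CPM. The latter list did not move together, as Mcpt8 had means of 8.99 and 14.5 CPM without and with DOX, whereas Ms4a2 had 1.67 and 0.970 CPM and Cpa3 0.0449 and 0.0463 CPM. C1qa, Ms4a1, Cd3e and all 4 erythroid markers had fewer than 10 counts in all. The part of these markers, or of Cdkn1a, in the values of the mitotic genes was not tested.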

How the data were processed

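RNA libraries depleted of ribosomal RNA were sequenced from the 10 cultures. Per the labels and the study's methods, the authors aligned reads with STAR 2.5.3e to GRCm38, counted them per gene with featureCounts 1.6.0 on GENCODE M15 and tested with DESeq2 1.22.2; whether counting used strand is not given in the sources used here. The deposited values are raw counts per gene, whole numbers, with no row removed. A further 14 columns of values were not used. Table columns carry laboratory clone names, and clones are numbered here as in the sample titles. The members and lists were chosen with earlier results of these data known.

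From the counts, genes with at least 10 counts in total were fitted with edgeR 4.0.16 (R 4.3.3; TMM, glmQLFit and glmQLFTest, Benjamini-Hochberg, threshold 0.05): the 6 MLL-AF9-i139 libraries alone for DOX in these clones, and all 10 libraries in 1 fit for DOX in MLL-AF9-ieGFP and for the interaction. DESeq2 1.42.0, other size factors, other filters, the clone block and each replicate left out were the alternatives. SE is the log2 fold change over the root of its F statistic. Per clone, log2 CPM (prior count 2) of the 2 libraries were subtracted. The libraries pair by clone: the deviations of treated and untreated libraries correlated at 0.378, 0.285 and 0.411 within clones and at -0.313 to -0.043 between them. Nothing says that the 2 libraries of a clone are more than cultures of that clone, so p-values measure the spread between these samples. The fits of the 6 MLL-AF9-i139 libraries (edgeR with and without the block, and DESeq2) were tested on simulated data before use. The fit of all 10 libraries was not. In the simulated data the effect of DOX was the same in every clone, so a response that differs between clones was not covered. Named members are, in each role group, those with the largest and smallest absolute log2 fold change, plus Cdk1, Ccnb1, Mki67 and Bub3, and any member past the threshold; Ccna2, Ttk, Cdca8, Plk1 and the others were added after their values were seen. Mir139 had 0 counts in every library and checks nothing here, since these counts are per gene and do not measure the mature microRNA. According to the study its gene also lies inside the host gene Pde2a, and zeros of genes inside other genes are no measure of expression here. A listed cell type marker is not reported here.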

Additional observations from a re-analysis of the deposited data

How the results depend on the processing

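In MLL-AF9-i139, the count of members called (0) became 3 with DESeq2, 9 with clone as replicate block and 6 in a fit of all 10 libraries. It was 0 to 17 as each replicate was left out, 17 being the value without clone 3. With the block and clone 3 left out it was 34 (31 lower, 3 higher), and 0 with the block and clone 1 or clone 2 left out. RLE size factors, a minimum of 1 count and a minimum of 10 counts in 3 libraries left it at 0. Of the 98 other mitosis genes tested, the count called (0) became 5, 13 and 6 under the first 3 settings. It was 0 to 37 as each replicate was left out, 37 (35 lower, 2 higher) being without clone 3. That fit called 1859 of all 18359 genes lower and 2122 higher. With the block and clone 3 left out, 69 were called (59 lower, 10 higher), beside 20.9% of all genes lower and 22.5% higher. The median of the members in MLL-AF9-i139 ran from -0.26 (without clone 3) to -0.18 (without clone 2) as each replicate was left out, and was -0.20 with the block. In MLL-AF9-ieGFP the median ran from -0.0314 to 0.0165 as its own time points were left out, and 0 members were called under every alternative run. For the interaction, 0 to 4 members were called as each replicate was left out, 4 being without clone 3, and the pairs as a block gave 0. Among 20 named members, direction held in 228 of 240 alternatives. It turned for Cdc25c (-0.0637 to 0.0303 as each replicate was left out, 0.0271 with the block and clone 2 left out), Kif2c (-0.107 to 0.0717 as each replicate was left out, 0.0067 with a minimum of 1 count, and 0.0186 and 0.0781 with the block and clone 2 or 3 left out) and Mki67 (-0.0520 to 0.0943 as each replicate was left out, -0.0373 and -0.0538 with the block and clone 1 or 2 left out, and -0.0077 in the fit of all 10 libraries), 3 genes whose values lie near 0. Members with a CHR numbered 14 of 41 when only the 150 bases before the start were searched (34.1%, against 11.2% of all genes), a window that leaves out the bases past the start. Members with a miR-139 match numbered 2 for 8-base matches only, a stricter subset. The cause of the difference between clone 3 and the other clones was not tested. Of the members tested, Cdc25b had 162 counts and a wide error, and the next lowest, Pttg1, had 4049.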
